A study of Trichoplusia ni and Spodoptera exigua with 20 samples.

Results

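This report describes 38 of the 10610 genes of the normalized table for the fat body of the cabbage looper, *Trichoplusia ni*. In each, all 8 libraries of larvae fed a histone deacetylase (HDAC) inhibitor lay below every control library. The inhibitors were sulforaphane (SFN) and trichostatin A (TSA), and SFN replicates 1 and 2 also lay near the TSA mean. The 38 genes were chosen by these levels, written as x = log2(normalized count + 1). A normalized count is the number of reads on a gene divided by the library total and by a trimmed mean of M-values (TMM) factor, on the scale of CPM, the usual unit of read counts relative to library size. The mean normalized count in the controls had to reach 20, and the lowest control had to lie at least 1 unit of x above the highest of the 8 treated libraries. The mean x of SFN replicates 1 and 2 had to lie within 0.5 of the mean x of the 4 TSA libraries, and the 100 genes with the highest control means were set aside. Of 827 genes that met the conditions on level and gap, 788 had SFN replicates 1 and 2 more than 0.5 above TSA, 1 had them more than 0.5 below, and the 38 described here, 4.59% of the 827, lay between. Of all 3655 genes with a control mean of at least 20, 29.4% had every treated library below every control and 22.8% met the condition on the gap. Because the rule used the control, SFN and TSA levels, those levels are given as a description of these genes and not as a test of them.

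A library holds the fat bodies of 3 to 5 wild-type larvae in a single pool, the larvae having been raised singly on artificial diet until about Day 10. The 3 control libraries came from larvae on diet coated with the ethanol carrier, 4 from larvae on diet coated with sulforaphane (SFN, 70 mM) and 4 from larvae on diet coated with trichostatin A (TSA, 330 µM), with the ethanol left to evaporate in every group. Control replicate 3, SFN replicate 4 and TSA replicate 4 carry library codes of a second series (02), and the other 8 codes of a first (01). Counts per library totalled 18681299 to 20462975 in the controls, 17184377 to 23518486 under SFN and 17625967 to 21176033 under TSA. The TMM factors implied by the deposited values were uneven, from 0.817 to 1.92 in the controls, from 0.685 to 1.28 under SFN and from 0.866 to 0.967 under TSA, with the highest in control replicate 3.

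HDACs remove acetyl groups from histone tails, and acetylated histones bind DNA less tightly, so that inhibitors of these enzymes are known to shift the transcription of many genes in either direction. SFN is made by cruciferous plants, on which *T*. *ni* feeds, and TSA is a microbial product used as a pharmaceutical inhibitor. In *T*. *ni*, however, the paper found no fall in HDAC activity after SFN was eaten. It describes the activity in fat body as still high under SFN and/or TSA. HDAC activity was not part of the data used here. The larval fat body is the main organ of insect intermediary metabolism, storing fat and glycogen and secreting most proteins of the haemolymph. The tables name genes by identifiers only, and 0 of the 38 matched any name among the 17445 genes of the RefSeq annotation. The genes are therefore given by identifier, with no function, and no marker of fat body or of another tissue could be looked up. In pooled tissue, fewer cells of a kind and less RNA per cell cannot be told apart.

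The control levels were moderate. The mean normalized count over the 3 controls ranged from 20.3 to 684 with a median of 42.2, and 22 of the 38 genes had a control mean under 50, 11 between 50 and 100, 3 between 100 and 200 and 2 over 200. In each library the 38 genes together held 0.176%, 0.307% and 0.768% of all counted reads in control replicates 1, 2 and 3. The share was 0.0435%, 0.0620%, 0.0771% and 0.0585% in SFN replicates 1 to 4. It was 0.0517%, 0.0542%, 0.0543% and 0.0560% in TSA replicates 1 to 4. The treated shares thus lay close together under TSA and somewhat wider under SFN, while the control shares spanned a wide range, at 0.417% ± 0.311 (SD, n = 3) against 0.0603% ± 0.0138 (SD, n = 4) under SFN and 0.0541% ± 0.00178 (SD, n = 4) under TSA.

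**Figure D1:**
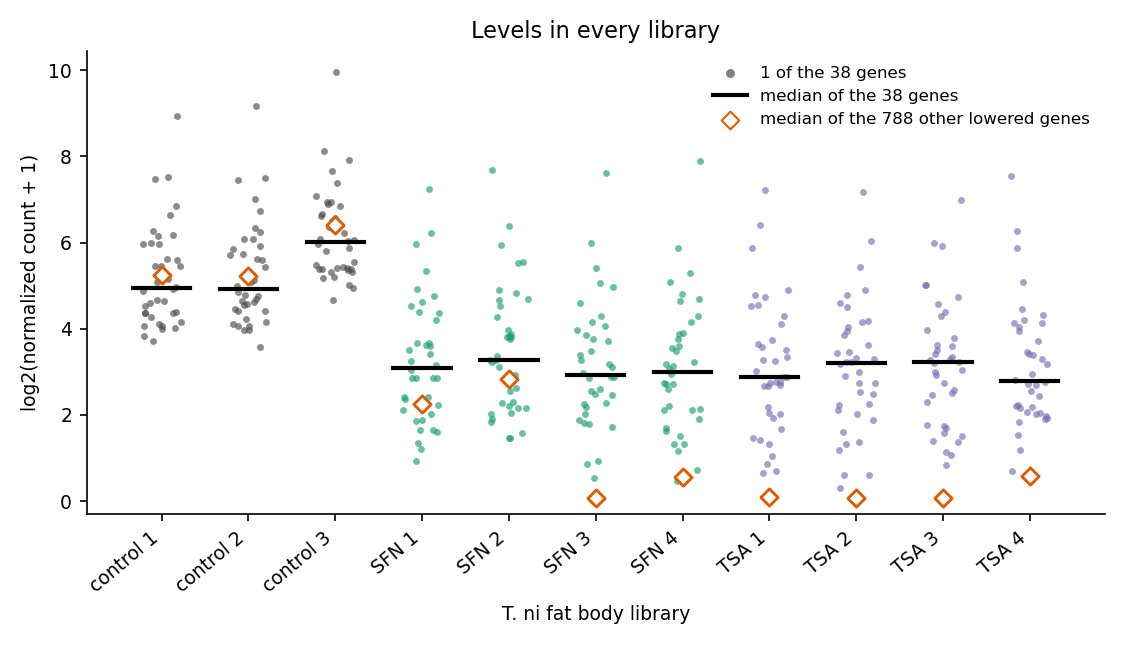
Levels of the 38 genes, as log2(normalized count + 1), in each of the 11 *T*. *ni* fat body libraries. Points are genes, black lines the median of the 38 and open diamonds the median of the 788 other lowered genes. The median of the 38 lies between 4.93 and 6.00 in the controls and between 2.79 and 3.27 in the treated libraries.

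The genes were lowered partially rather than lost. The control mean exceeded the treated mean by 1.63 to 3.90 units of x, with a median of 2.25, which is 3.09-fold to 14.9-fold with a median of 4.75-fold on that scale. The difference was between 1 and 2 units in 14 genes, between 2 and 3 in 19, between 3 and 4 in 5 and over 4 in 0. As a share of the control mean, the normalized count left under TSA was 2.57% to 30.9% (median 17.9%), and under SFN 3.69% to 32.6% (median 20.3%). Reads were found in every treated library for every gene, so that 0 of the 304 values were 0, and the lowest was 3 reads. In the 788 other lowered genes the median share left was 0.244% under TSA. The mean normalized count under TSA was under 1 in 659 of them (83.6%), against 1 of the 38 (2.63%). The limit on closeness bears on this contrast. A gene near 0 under TSA falls among the 788 when SFN replicates 1 and 2 keep more than that limit allows. In the 788 the median share left in SFN replicates 1 and 2 was 8.64%. The contrast is thus partly set by the rule, and was not tested apart from it.

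**Figure D2:**
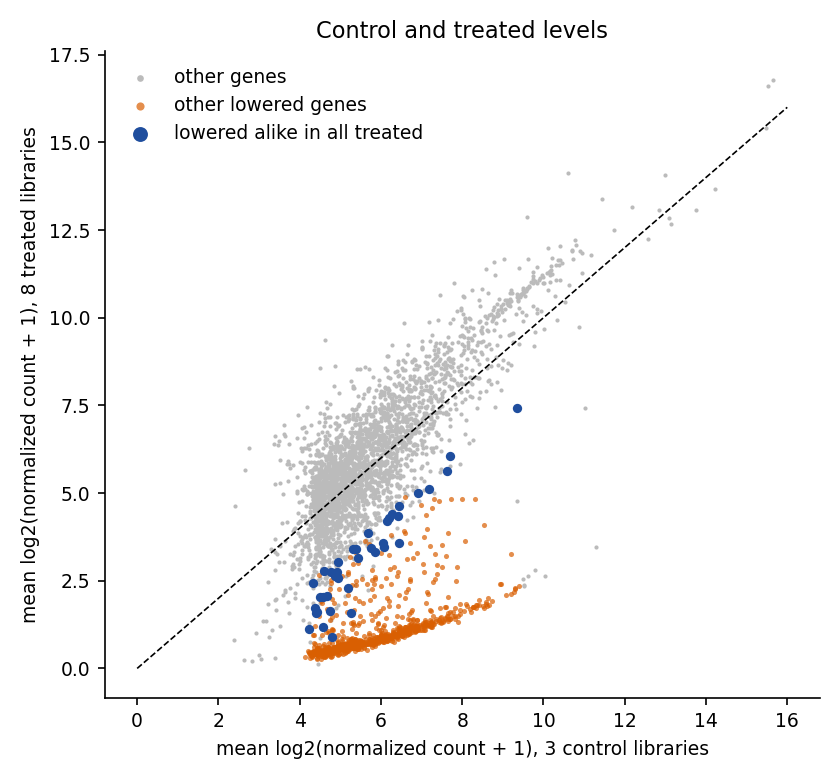
Mean log2(normalized count + 1) of the 8 treated libraries against that of the 3 controls, for the 3655 genes with a control mean normalized count of at least 20. Blue points are the 38 genes, orange points the 788 other lowered genes, grey points the remaining genes and the dashed line marks equal levels. The 38 genes lie in a band between the line and the floor along which most of the 788 lie.

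Tni16G00180 was the most abundant of the 38. Its normalized counts were 487, 575 and 992 in control replicates 1 to 3. They were 150.2, 205, 193 and 237 in the SFN replicates. They were 148, 144, 126 and 185 in the TSA replicates. Every treated library thus lay below the lowest control, and the SFN and TSA values overlapped. The mean was 684 ± 269.9 (SD, n = 3) in controls, 197 ± 36.0 (SD, n = 4) under SFN and 151 ± 24.6 (SD, n = 4) under TSA, a difference of 1.93 units of x between control and treated.

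Tni18G02030 had the second highest control mean and the smallest difference of the 38, at 1.63 units of x. Its normalized counts were 178, 181 and 276 in the controls, 73.3, 82.6, 62.1 and 57.8 under SFN, and 58.0, 64.7, 60.0 and 75.7 under TSA. The SFN and TSA libraries overlapped, with 32.6% of the control mean left under SFN and 30.5% under TSA. Tni04G03320 stood at 113, 128 and 202 in the controls, 39.3, 44.8, 32.5 and 38.5 under SFN, and 26.4, 28.7, 31.1 and 33.2 under TSA. Tni11G01940 stood at 98.6, 106 and 165 in the controls, 29.4, 45.7, 41.7 and 32.8 under SFN, and from 21.0 (replicate 4) to 31.2 (replicate 3) under TSA. In each of these the SFN mean was the higher of the treated means, with overlapping libraries in Tni11G01940 and with 1 of the SFN libraries within the TSA range in Tni04G03320.

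Tni05G02900 showed the largest difference, 3.90 units of x. Its normalized counts were 19.7, 20.8 and 45.6 in the controls, 0.900, 1.78, 0.909 and 0.650 under SFN, and 0.625, 0.234, 0.798 and 1.29 under TSA. The treated values rest on few reads, the lowest being 4. Tni18G01820, the third in size with 3.40 units, stood at 15.7, 17.8 and 41.3 in the controls, 2.04, 1.78, 0.818 and 1.25 under SFN, and 0.563, 0.526, 1.10 and 2.77 under TSA. Tni10G02730, with 3.11 units, was the most even of the genes with a difference over 3, at 19.5, 20.4 and 42.5 in the controls, 2.13, 3.04, 2.27 and 2.23 under SFN, and from 1.52 (replicate 2) to 2.58 (replicate 4) under TSA. The 5 genes with differences over 3 all had control means under 50, where 1 read is worth most, and in 4 of them the lowest treated value rested on 10 reads or fewer.

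Tni25G00860 combined a high level with a large difference, 2.86 units. Its normalized counts were 69.9, 74.8 and 121 in the controls, 7.93, 14.7, 15.7 and 10.7 under SFN, and 10.4, 9.77, 11.4 and 8.86 under TSA. Its treated values rest on 97 reads or more, and 13.8% of the control mean was left under SFN and 11.4% under TSA.

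**Figure D3:**
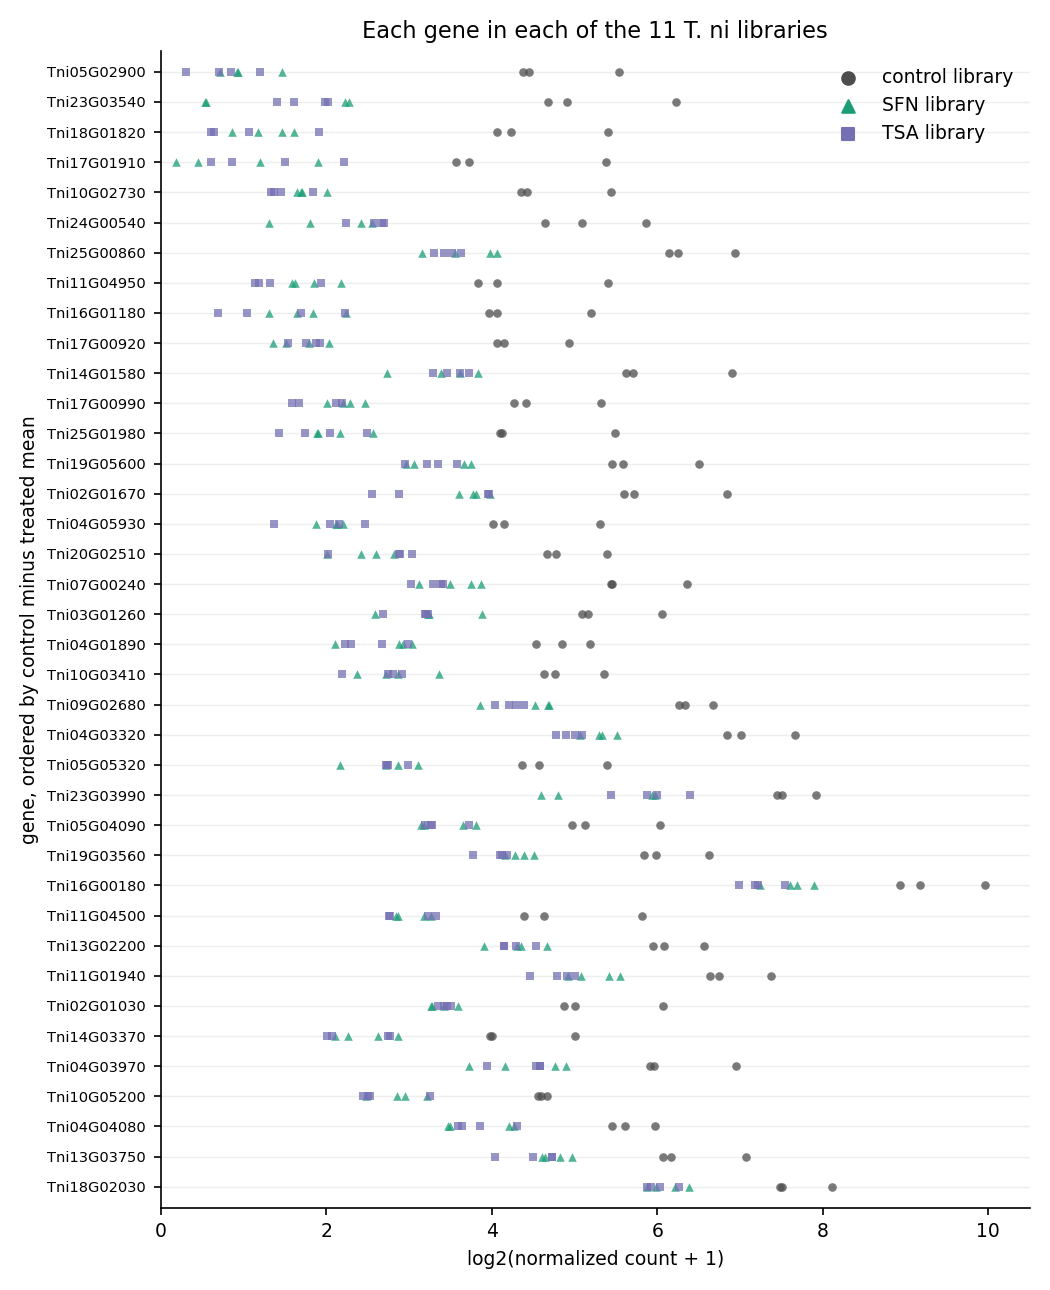
Each of the 38 genes (rows, ordered by control minus treated mean) in each of the 11 *T*. *ni* libraries, as log2(normalized count + 1). Circles are control, triangles SFN and squares TSA libraries. In every row all 3 circles lie to the right of all 8 treated symbols, as the rule requires, and the circle farthest right, control replicate 3, usually stands apart from the other circles.

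In all 38 genes control replicate 3 was the highest control, against 1478 of the 3655 genes with a control mean of at least 20 (40.4%). It exceeded the mean of control replicates 1 and 2 by 0.09 to 1.74 units of x, with a median of 0.97, while replicates 1 and 2 differed by a median of 0.09 (replicate 2 minus replicate 1, from -0.45 to 0.32). On CPM by library total these medians were 1.83 and 0.79. The rule set a limit on the lowest control only, so the order of the controls was free, although a high control replicate 3 helps a gene to reach the mean of 20. The 788 other lowered genes did the same, with control replicate 3 the highest in 782 (99.2%) and a median excess of 1.20 units. Those genes held 3.85%, 6.46% and 20.5% of all counted reads in control replicates 1 to 3, and 0.0591% to 0.630% in the treated libraries, so that they moved with the 38 among the controls. Their part in the levels of the 38 was not tested.

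**Figure D4:**
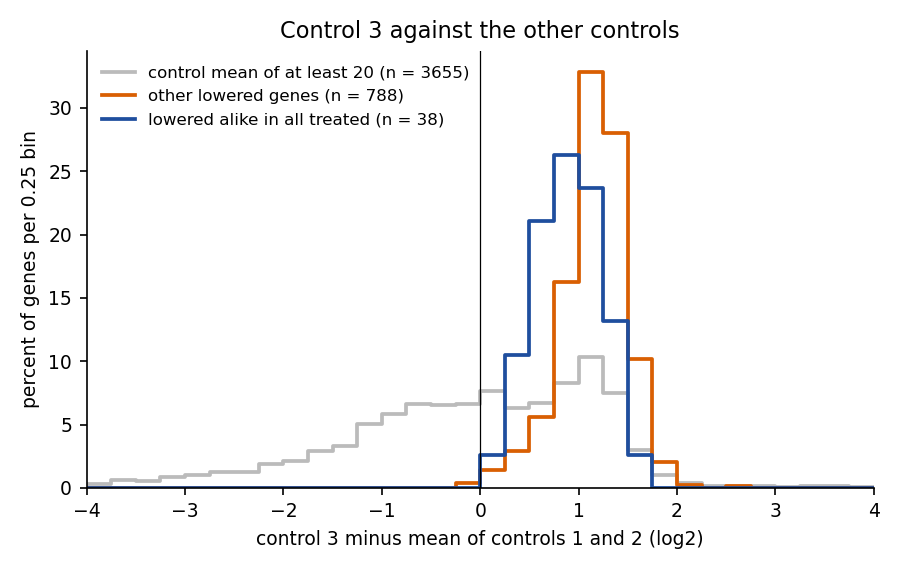
Control replicate 3 minus the mean of control replicates 1 and 2, in units of log2(normalized count + 1), as the percent of genes in bins of 0.25 units. All 38 genes (blue) lie above 0, with a median of 0.97, like most of the 788 other lowered genes (orange, median 1.20), while the 3655 genes with a control mean of at least 20 (grey) spread on both sides, with a median of 0.06.

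The control spread varied from gene to gene. The range over the 3 controls was under 1 unit of x in 16 genes and 1 unit or more in 22. Tni10G05200 had the closest controls, 0.11 units apart, with normalized counts of 23.3, 22.5 and 24.4 in the controls, 6.22, 8.31, 4.59 and 6.74 under SFN, and 8.57, 4.80, 4.69 and 4.43 under TSA. In this gene the treated libraries were as far below control replicate 3 as below the others. Tni09G02680 also had close controls, 0.41 units apart, at 75.8, 79.8 and 101, with 22.1, 24.6, 13.5 and 24.9 under SFN and 18.6, 15.4, 19.9 and 17.5 under TSA. Tni17G01910 had the widest controls, 1.81 units apart, at 12.2, 10.9 and 40.8, with 1.31, 2.75, 0.136 and 0.372 under SFN and 0.813, 0.526, 1.84 and 3.63 under TSA. Its highest treated value, in TSA replicate 4, came within 1.36 units of its lowest control. Tni11G04950 stood at 13.2, 15.7 and 41.4 in the controls, 2.62, 2.01, 3.55 and 2.09 under SFN, and from 1.20 (replicate 3) to 2.83 (replicate 4) under TSA. Tni11G04500 stood at 20.0, 23.7 and 55.2 in the controls, 6.30, 8.595, 6.18 and 8.08 under SFN, and 5.81, 9.07, 8.42 and 5.78 under TSA. In both, control replicate 3 was more than 1 unit above the other controls while the treated libraries of either inhibitor overlapped.

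The treated libraries of a gene spanned 0.32 to 2.03 units of x from the lowest to the highest of the 8, with a median of 0.93, close to the median control range of 1.03. No treated library was the lowest or the highest throughout. The highest of the 8 was most often SFN replicate 2, in 15 genes, followed by SFN replicate 3 in 8, and each other treated library was the highest in 1 to 4 genes. Among TSA libraries the lowest was replicate 4 in 14 genes, replicate 2 in 10 and replicates 1 and 3 in 7 each. Tni04G04080 stood at 42.8, 47.9 and 61.8 in the controls, 17.4, 18.3, 10.1 and 10.3 under SFN, and 11.5, 13.5, 11.1 and 18.8 under TSA, with its highest treated value in TSA replicate 4. Tni13G03750 stood at 70.9, 66.4 and 134 in the controls, 23.5, 27.3, 30.2 and 24.1 under SFN, and 25.5, 21.6, 25.6 and 15.5 under TSA, with its lowest treated value in that same library. The order of the pools therefore differed from gene to gene. The median SD of x within a group was 0.33 for SFN and 0.30 for TSA in the 38 genes, and 1.16 and 0.23 in the 788 other lowered genes. In the 788, SFN replicates 1 and 2 had to lie above TSA, which bears on their SFN spread. Their TSA values lay near the floor, with a median x of 0.07 to 0.09 in TSA replicates 1 to 3, which leaves little room for spread.

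Read within each series of library codes, control minus treated was 1.39 to 3.55 units of x (median 1.97) in series 01, which holds 2 controls and 6 treated libraries. It was 1.97 to 4.96 units (median 2.91) in series 02, which holds 1 control, 1 SFN and 1 TSA library, and was the larger in series 02 in 38 of 38 genes. The same held in 785 of the 788 other lowered genes and in 1861 of the 3655 genes with a control mean of at least 20. The difference between series lay in the controls. Control replicate 3 is the only control of series 02, so the series and that single pool cannot be told apart. SFN replicate 4 lay a median of 0.20 below the mean of SFN replicates 1 to 3 (-0.20), and TSA replicate 4 lay 0.04 above the mean of TSA replicates 1 to 3. In a fit of treatment and series over all genes, the quasi-likelihood test of edgeR, adjusted by Benjamini-Hochberg, called 0 of the 37 tested members and 0% of the 5445 genes. At an unadjusted p under 0.05 the count was 5 of the members and 420 of the 5445 genes, and the likelihood ratio test called 0 members and 7 genes. The fitted difference (series 02 minus 01) ranged from -0.14 to 1.29 on the log2 scale, with a median of 0.40 and a median standard error of 0.38. This fit held a single series term shared by control, SFN and TSA libraries. It therefore could not test a difference confined to the controls. Without control replicate 3 that median was -0.05, over the 20 members that then passed the filter on low counts.

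The rule fixed SFN replicates 1 and 2 close to TSA but set no limit on how far SFN replicates 3 and 4 could lie below it. These pools did not sit on 1 side of TSA. The mean x of SFN replicates 3 and 4 lay above the TSA mean in 19 genes and below it in 19, from -1.22 to 0.53 units with a median of 0.00. It was within 0.5 units in 30 of the 38 (78.9%), against 93.0% of the 788 other lowered genes and 70.7% of the 3655 genes with a control mean of at least 20. Most of the 788 lay near the floor of x in these libraries, which leaves little room for a larger difference. Their median x was 0.06 in SFN replicate 3, 0.55 in SFN replicate 4 and 0.07 to 0.58 in the TSA libraries. SFN replicates 1 and 2 lay above SFN replicates 3 and 4 in 26 of the 38 (68.4%, median difference 0.28 units), close to the 63.5% and 0.34 units of those 3655 genes. In the 788 other lowered genes, in which SFN replicates 1 and 2 above TSA was a condition, the same difference was above 0 in 781 (99.1%), with a median of 1.94 units. SFN replicate 2 was the highest SFN library in 22 of the 38 genes (57.9%) and in 752 of the 788 (95.4%).

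**Figure D5:**
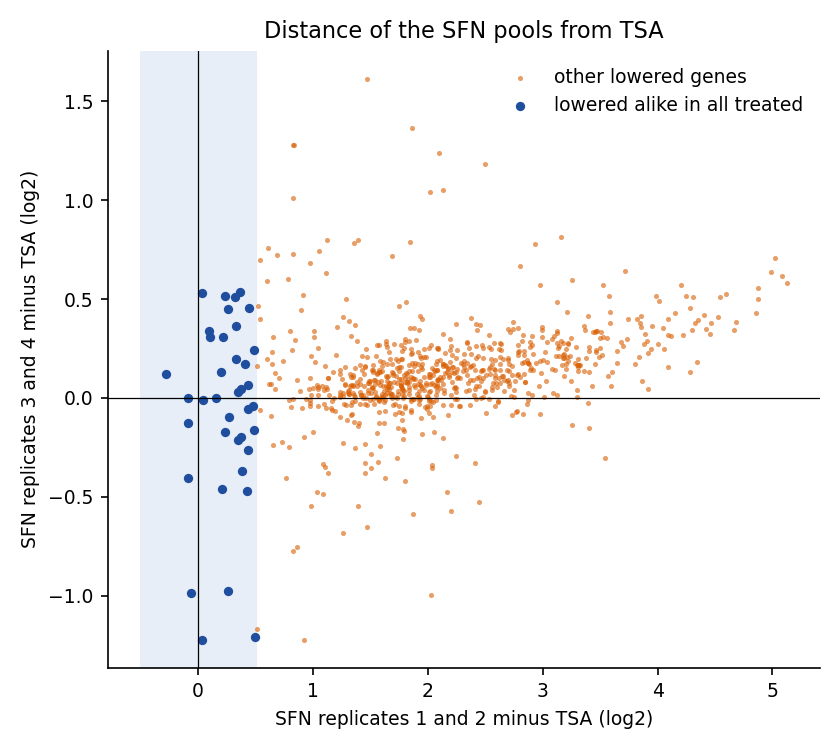
Mean of SFN replicates 1 and 2 minus the TSA mean (horizontal) and mean of SFN replicates 3 and 4 minus the TSA mean (vertical), both in units of log2(normalized count + 1). The shaded band is the limit of 0.5 that defines the 38 genes (blue), which scatter from -1.22 to 0.53 on the vertical axis, while the 788 other lowered genes (orange) lie to the right of the band.

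The genes in which SFN replicates 3 and 4 lay furthest below TSA were Tni23G03990, Tni23G03540 and Tni24G00540, by 1.22, 1.21 and 0.99 units of x. Tni23G03990 stood at 181, 174 and 242 in the controls, 61.8, 60.3, 23.2 and 27.0 under SFN, and 83.3, 42.3, 62.8 and 57.7 under TSA. Its SFN libraries fell into a higher and a lower pair, and the lower pair lay under every TSA library. Tni23G03540 stood at 29.2, 24.7 and 73.8 in the controls, 3.68, 3.84, 0.455 and 0.465 under SFN, and 3.06, 2.05, 1.65 and 2.95 under TSA, with the same division of the SFN pools at much lower counts. Tni24G00540 stood at 33.2, 23.9 and 57.1 in the controls, 4.34, 4.87, 2.50 and 1.49 under SFN, and 5.38, 3.74, 4.99 and 5.48 under TSA. At the other end, SFN replicates 3 and 4 lay 0.53 units above TSA in Tni02G01670 and Tni07G00240 and 0.52 in Tni16G00180. Tni07G00240 stood at 43.0, 42.5 and 80.9 in the controls, 10.3, 7.68, 12.5 and 13.7 under SFN, and 7.13, 8.77, 9.67 and 9.48 under TSA, so that the SFN range enclosed every TSA library but replicate 1. Tni02G01670 stood at 47.6, 51.8 and 114 in the controls, 11.1, 13.1, 14.8 and 12.6 under SFN, and 6.38, 14.5, 14.7 and 4.86 under TSA, where TSA replicates 1 and 4 formed the lower pair.

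Over all 4 libraries of each inhibitor, SFN and TSA overlapped in all 38 genes. Such groups were apart in 2.9% of the 3655 genes with a control mean of at least 20. The SFN mean was the higher in 28 genes and the lower in 10, by -0.60 to 0.45 units of x (SFN minus TSA, median 0.16). Across all genes, edgeR's quasi-likelihood test of SFN against TSA, with the replicate number as a block, called 0 of 37 members and 0% of the 5445 genes. At an unadjusted p under 0.05 the count was 0 of the members and 263 of the 5445 genes. The likelihood ratio test called 0 members and 2 genes, and DESeq2's Wald test called 0 members and 509 genes (9.35%), 473 of them higher under SFN and 36 lower. The fitted log2 fold changes of SFN against TSA were -0.76 to 0.50 in the members, with a median standard error of 0.41, so that differences of that size could not be resolved. The rule kept SFN replicates 1 and 2 near TSA, which by itself makes such differences small.

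The same model gives the size of each contrast with control over all genes, and for the 38 it only restates the rule. For SFN against control, the edgeR quasi-likelihood test, adjusted by Benjamini-Hochberg, called 35 of 37 members, all lower, where 5.2% of the 5445 tested genes were called lower. For TSA against control it called 36 of 37, all lower, where 20% of genes were. Without the replicate block, 37 of 37 were called lower under each inhibitor, where 22.9% of genes were under SFN and 22.7% under TSA. The member not tested, Tni17G00920, missed the filter of a mean CPM of 10 over the 11 libraries. A gene with a mean CPM under 10 in the treated libraries passes it only through its controls. The members not called were Tni04G03970 under SFN and Tni17G01910 under both inhibitors. The median log2 fold change of the members was -2.69 under SFN (range -5.15 to -2.05) and -2.64 under TSA (range -5.65 to -1.94). The medians over all tested genes were -0.16 and -0.05. These fold changes are larger than the differences in x, since the TMM factors were set anew on the filtered genes and no 1 was added. In Tni16G00180 the log2 fold change was -2.33 (standard error 0.41, adjusted p = 0.0337 from the edgeR test) under SFN and -2.53 (standard error 0.41, adjusted p = 0.0227) under TSA. In Tni05G02900 it was -5.15 (standard error 0.74, adjusted p = 0.0337 from the edgeR test) and -5.65 (standard error 0.81, adjusted p = 0.0195). The 0.0337 of the edgeR test was the lowest adjusted value of any member under SFN and was shared by many of them. It therefore does not set these genes apart from other members.

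The counts moved with single libraries, for the members as for all genes, the latter called in either direction. With the block, leaving out TSA replicate 3 gave an SFN count of 16 of 38 members and 132 of 5511 genes, and leaving out each other library in turn gave 0 members and 0 genes. The TSA count was 0 members and 0 genes without TSA replicate 1, 2 or 3. It was 14 of 35 members and 2.10% of genes without control replicate 2, 13 of 20 members and 2.27% of genes without control replicate 3, and 27 of 37 members and 4.34% of genes without control replicate 1. The log2 fold changes moved less, with a median between -3.003 and -1.93 under SFN and between -2.91 and -2.05 under TSA over the same omissions, the smallest in size being those without control replicate 3. Those were medians over 20 tested members, against 35 to 38 in the other omissions, so that the set of genes changed as well.

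The 38 genes were scattered over the identifiers. Their numbers carry 18 of the 32 leading fields of the table, with at most 5 genes in a field (04, which holds 510 genes of the table). No member had another as its neighbour in the order of the raw table, and 5 of 38 (13.2%) stood next to 1 of the 788 other lowered genes, against 15.1% of the genes with a control mean of at least 20.

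The limits of the rule passed through a continuous range. Just inside the limit on the gap lay Tni04G03970, with 1.01 units between the lowest control and the highest treated library, at 61.1, 59.4 and 123 in the controls, 26.3, 28.9, 12.2 and 16.9 under SFN, and 22.3, 23.0, 22.9 and 14.3 under TSA. Tni16G00180 followed with 1.03 and Tni23G03990 with 1.05. Just outside lay Tni20G01500, Tni19G02130 and Tni17G02920, with gaps of 0.996, 0.992 and 0.991. Among them Tni20G01500 stood at 126, 115 and 262 in the controls, 24.1, 34.2, 57.3 and 31.9 under SFN, and 19.7, 37.6, 40.4 and 17.9 under TSA. On the limit of closeness, Tni23G03540, Tni03G01260 and Tni04G03320 lay just inside, with SFN replicates 1 and 2 above TSA by 0.50, 0.49 and 0.48 units. Tni04G00650, Tni10G05550 and Tni15G00790 lay just outside, with 0.51, 0.51 and 0.52. Of the 38, 33 had SFN replicates 1 and 2 above TSA and 5 below.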

How the data were processed

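Fat body RNA of *T*. *ni* larvae was sequenced in 3 control, 4 SFN and 4 TSA libraries. The authors trimmed reads with Trimmomatic 0.39, aligned them with HISAT2 2.2.1 to the Cornell-1 genome and deposited raw counts per gene from featureCounts (14384 genes). They also deposited a normalized signal per gene (10610 genes), in which counts were divided by library total and TMM factor. When each library was multiplied by its own factor, 100% of the values equalled the raw counts (tolerance 0.01). The *S*. *exigua* tables were not used here, and 0 columns belonged to no mapped sample. Libraries were assigned from their titles.

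The members and lists were chosen with earlier results of these data known. The rule was applied to the normalized values with a pseudocount of 1. Raw counts were fitted in edgeR 4.0.16 (R 4.3.3) for genes with a mean CPM over 10, with TMM scaling and terms for treatment and replicate number. The replicate block is a reading of methods that speak of pairing samples. It joins control replicate 3, of library series 02, to SFN and TSA replicates 3, of series 01. No control carries replicate number 4, so SFN and TSA replicates 4 bear only indirectly on the blocked contrasts with control. Quasi-likelihood tests used a Benjamini-Hochberg threshold of 0.05 over all genes, and the model was checked on simulated counts. A second model held treatment and library series. Alternatives were other scalings, filters, tests (DESeq2 1.42.0), pseudocounts, limits of the rule, the fit without the block, and each library left out. Depth was lowest in SFN replicate 3, with 17184377 counts, and limits precision in genes with few reads. Separate rearing of the pools of a group is not stated beyond their being biological replicates. The p-values therefore weigh a difference against the spread between these pools, less what the replicate block takes up where it is used.

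The genes named are, among the 38, the 8 with the largest difference between control and treated, the 8 with the highest control mean, the 4 with the smallest gap, the 4 with the closest and the 4 with the widest controls, and the 3 with SFN replicates 3 and 4 furthest above and the 3 furthest below TSA, together with the 3 genes just outside each limit. This took in 21 of the 38, and not all are given in full. Tni03G01260 and Tni17G00920 were named after their values were seen. A run of consecutive identifiers was also to be named, but the longest was of 1 gene. Lists of gene functions and tissue markers could not be used without gene names.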

Additional observations from a re-analysis of the deposited data

Results flagged for a closer look

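Within the 4 TSA libraries, 2 of the named genes had 1 library far from the rest. Tni04G03970 stood at 3.94 on the scale of log2(normalized count + 1) in TSA replicate 4, below TSA replicates 1 to 3. Tni10G05200 stood at 3.26 in TSA replicate 1, above the others. Libraries were flagged by Dixon's ratio of the gap to the range. Among all 38 genes, 7 of 76 groups of 4 libraries held such a library, and chance flags about 1 in 20 groups. The groups reuse the same libraries across genes and are not independent. The 2 rates are therefore given as a description and were not tested.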

How the results depend on the processing

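The number of genes that the rule finds followed its settings. It was 160 with a pseudocount of 5 (32 of them among the 38), 69 with CPM by library total (29 among the 38), 72 with DESeq2's size factors, 63 and 20 with a control mean of at least 10 and 40, 108 and 6 with a gap of at least 0.5 and 2, 15 and 94 with a closeness of 0.25 and 1, and 81 when all 4 SFN libraries had to be close to TSA. With 1 library left out it ranged from 33 (without SFN replicate 1) to 74 (without SFN replicate 2), and was 61 without control replicate 1. On CPM by library total, all 38 genes kept every treated library below every control, and control replicate 3 exceeded the other controls by a median of 1.83 units of x in place of 0.97. Control replicate 2 exceeded replicate 1 by a median of 0.79 units in place of 0.09. SFN replicates 1 and 2 then lay above TSA in 21 of the 38 in place of 33.

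At a threshold of 0.01, 0 members and 0 of all 5445 genes were called under SFN and under TSA. With only libraries of series 01, 0 of 26 tested members were called under SFN (0% of 4951 genes) and 24 of 26 under TSA (398 of 4951 genes called lower). The likelihood ratio test and DESeq2's Wald test called 37 of 37 under each, all lower. Beside them, 20.4% and 25.6% of all genes were called lower under SFN and 21.0% and 26.4% under TSA. With 1 library left out, the SFN count ranged from 0 to 16 and the TSA count from 0 to 38. Same-numbered libraries did not deviate together, with correlations from -0.25 to 0.42, so the number alone does not pair them, and without the replicate block 37 of 37 members were called under SFN and 37 of 37 under TSA, beside 22.9% and 22.7% of all tested genes called lower. Without the block and without control replicate 3, a combination chosen after seeing the data, 20 of 20 tested members were called under each, beside 9.47% and 15.4% of 4888 genes called lower. The counts of members called between SFN and TSA and between library series were 0 under all alternatives run. The series counts come from a term shared by all groups, which cannot test a difference confined to the controls. Over all genes, calls between SFN and TSA were 509 with DESeq2's Wald test, 59 with series 01 only, 2 with the likelihood ratio test, 2 without SFN replicate 3 and 0 otherwise, and calls between series 7 with the likelihood ratio test and 0 otherwise.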
